A study of Mus musculus with 4 samples.

Results

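The sixth day of treatment with CL 316243 was set directly against the first, with the control array left out of the ratio. The comparison was chosen by treatment time in the sample labels, and it used 2 of the 4 arrays of the series. Each array was hybridized with RNA pooled from epididymal white fat (the fat pad beside the testis and epididymis) of male C57 BL6 mice aged 3 to 4 months. Mice of the compared groups had received CL 316243 at 3 nmol/hr, for 1 day on one array and for 6 days on the other. The other arrays of the series came from mice treated for 3 days at the same rate and from control mice, and their values are given beside the ratio as context. The labels write the compound as CL 316243 in the descriptions and CL 316234 in the titles of 2 arrays. They do not say how many mice went into a pool, how the compound was delivered or what the control mice received. Each group was 1 array, so replication is lacking, no test was run and the number of arrays limits the precision. Since the RNA came from whole tissue, fewer cells of a type and less RNA per cell cannot be told apart.

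CL 316243 stimulates the β3-adrenergic receptor selectively, and in rodents that receptor sits mainly on fat cells. Its activation raises cyclic AMP and activates protein kinase A, which sets off lipolysis, the release of fatty acids from stored triglyceride, and immediate early transcription. When stimulation lasts, white fat is known to take in leukocytes and to gain mitochondria and some genes of brown fat. The comparison of day 6 with day 1 asks which transcripts differ between the longer and the shorter treatment at the same dose rate.

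The deposited values are linear intensities, 1 for each probe set (a group of short DNA probes against a transcript). They were raised to a floor of 173 intensity units, below which values were not ordered, and compared as the log2 ratio of day 6 over day 1. The words higher and lower are used for ratios of 2-fold or more between the arrays. Where the dimmer value lay at or under the floor, the fold is a bound and is written with "at least". Of 12422 probe sets, 695 (5.59%) were higher and 743 (5.98%) lower at day 6 than at day 1. At the 4-fold level the counts were 105 higher and 176 lower, and at the 10-fold level 11 higher and 44 lower. Taken as 8251 named genes with 1 probe set each, 562 (6.81%) were higher and 559 (6.77%) lower, and the median log2 ratio of all genes was 0.00. For 5289 genes both arrays were above the floor, for 774 only the brighter one was, and 2188 lay below it on both.

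The value distributions of the 4 arrays were nearly the same, with medians of 314 to 314.5, so every difference is relative to that shared distribution. Different probe sets of the same gene gave an error of 0.37 on the log2 scale over 681 pairs, and 3 such errors come to 2.16-fold. This error holds no variation between mice or pools. When all probe sets of a gene were averaged instead of taking the brightest, 20 of the 205 genes named here that passed 2-fold no longer did, among them Cd68, Dnajc3, Gar1, Idh3g, C2, Cav1 and Ighm. For Cd68, Gar1, Idh3g and C2 the only other probe set was below the floor on both arrays. It entered the mean as a log2 ratio of 0, which is not a reading against the call. Fat cell transcripts were abundant on both arrays, as for Adipoq, the adipokine adiponectin, at 25374 on day 1 and 55274 on day 6. Transcripts of the neighbouring epididymis differed between the arrays. Lcn5, a lipocalin secreted by the epididymis, read 3321 in control, 63 at day 1, 7 at day 3 and 8029 at day 6, and Adam7, a surface protein of the epididymis, read 2654, 200, 251 and 1846. Their part in the other differences was not tested.

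**Figure D1:**
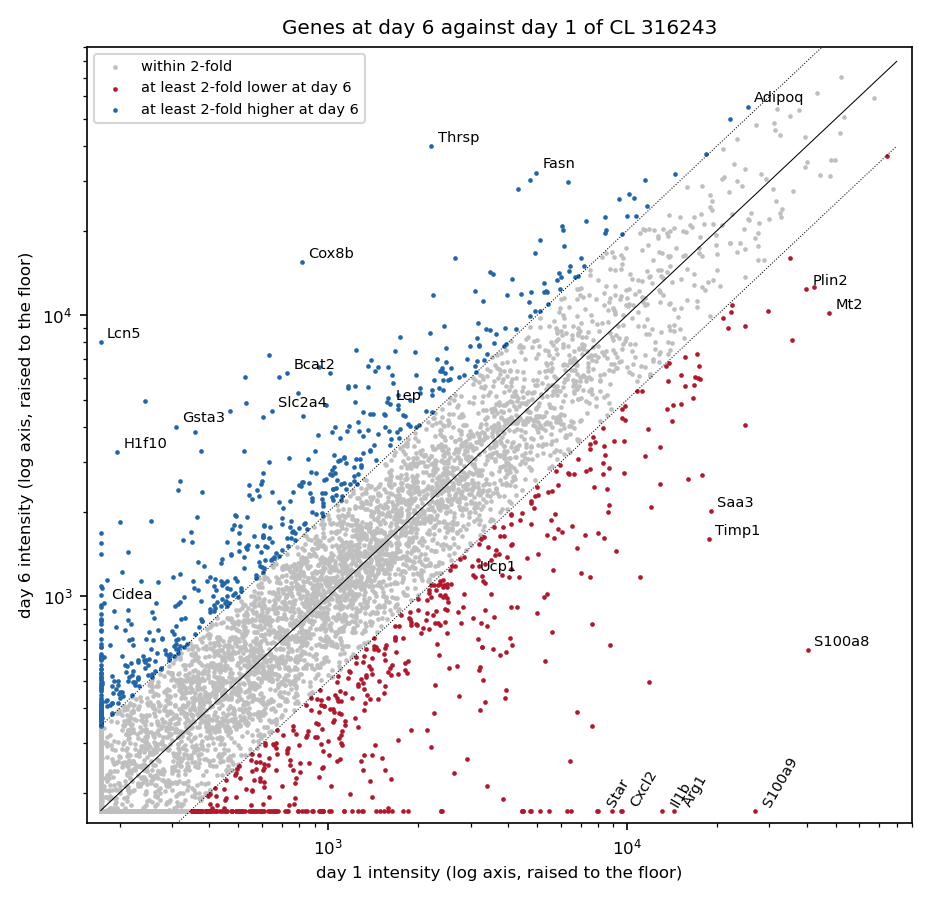
Intensity at day 6 against day 1 for 8251 genes, both on log axes and raised to the floor of 173 units; dotted lines mark 2-fold, blue points are at least 2-fold higher and red points at least 2-fold lower at day 6. S100a9, Arg1, Il1b, Cxcl2 and Star lie along the floor at day 6 with day 1 intensities from 7991 to 26727, while Thrsp and Cox8b stand above the diagonal at 40011 and 15473 on day 6.

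Of 9 measured genes of chemokines and receptors that draw in neutrophils, 7 were lower at day 6 and 0 higher. Their median log2 ratio of -2.71 was the lowest among the 39 pathway lists. That rank depended on the floor. With the floor raised to percentile 60 the median was -1.48, against -1.52 for the CC chemokine list described below. The chemokine Cxcl2 read 32 in control, 9604 at day 1, 440 at day 3 and 57 at day 6, which puts day 6 at least 55.5-fold below day 1. Cxcl1, which acts on the same receptor, read 99, 8918, 265 and 64 and was at least 51.5-fold lower. Both stood far above the floor at day 1, and at day 6 they were below it, as in control. Cxcl5 was at least 29.6-fold lower, and Cxcr2, the receptor of these chemokines, was below the floor at day 6 and at least 8.63-fold lower.

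The alarmins S100a8 and S100a9, which together form a calcium-binding protein that fills neutrophil cytoplasm, had the same course. S100a9 read 119 in control, 26727 at day 1, 540 at day 3 and 13 at day 6, at least 154-fold lower than at day 1. S100a8 read 414, 40305, 1494 and 643 and was 62.7-fold lower, with both values measured. For both, day 1 was by far the highest array, and S100a8 at day 6 lay within 2-fold of its control reading.

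Of 15 CC chemokine and receptor genes, 9 were lower at day 6 and 0 higher, with a median log2 ratio of -1.84. Ccl2, the main attractant of monocytes, read 785 in control, 11807 at day 1, 2398 at day 3 and 495 at day 6, which is 23.9-fold lower. Its relatives Ccl7 and Ccl3 were at least 26.0-fold and 25.9-fold lower, and the receptor Ccr1 at least 27.3-fold lower. The list did not move as a block. Ccl8, named after its value was seen, read 1293, 4279, 6021 and 4946, so that day 6 and day 1 lay within 2-fold.

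Of 28 genes of the interleukin-1, interleukin-6 and TNF families and their signalling, 16 were lower at day 6 and 1 higher, with a median of -1.39. The cytokine Il1b read 36 in control, 13108 at day 1, 121 at day 3 and 8 at day 6, and was at least 75.8-fold lower. Its blockers were lower as well. The receptor antagonist Il1rn read 113, 9539, 1608 and 119, at least 55.1-fold lower, and the decoy receptor Il1r2 was at least 36.5-fold lower. Il4ra, the receptor chain for interleukins 4 and 13, read 575, 6815, 976 and 389 and was 17.5-fold lower by its brighter probe set. Socs3, a feedback inhibitor of interleukin-6 signalling, was 11.1-fold lower, from 2919 to 263. The only member that was higher was Cish, a related feedback inhibitor, with 413 at day 1 and 934 at day 6, named after its value was seen. Tnf was below the floor on both arrays.

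**Figure D2:**
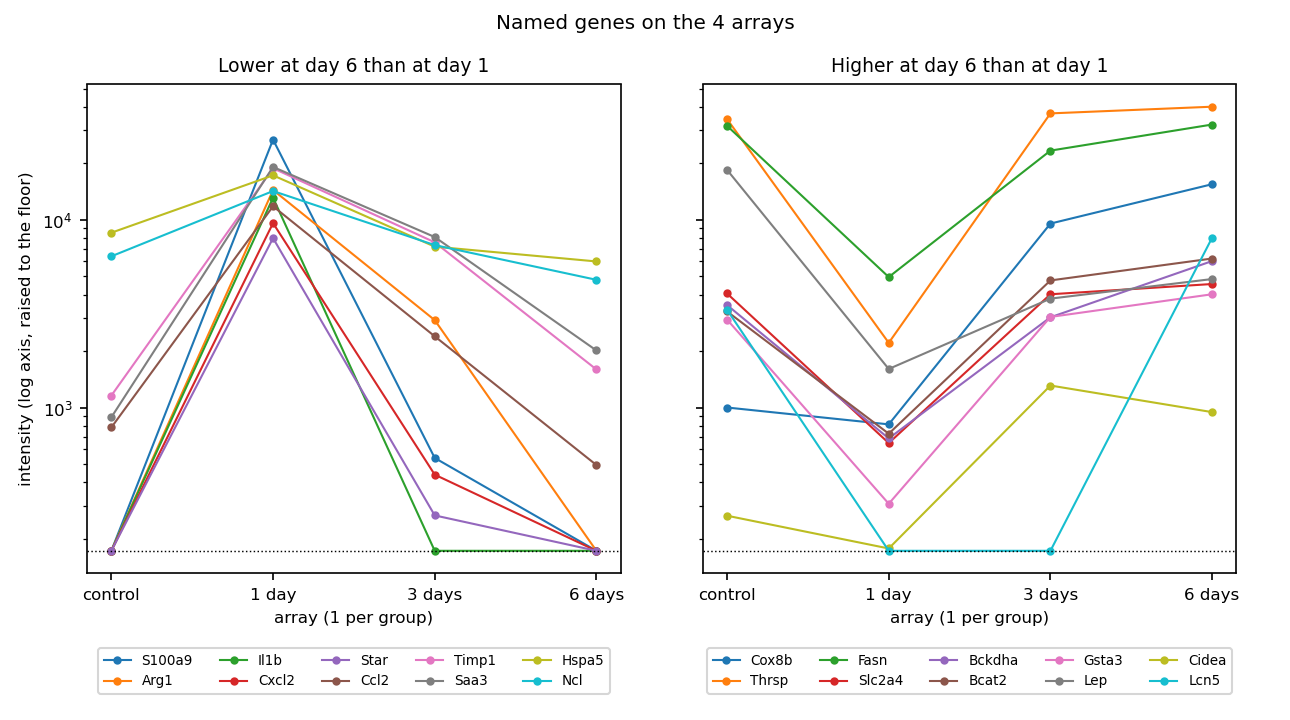
Intensity on each of the 4 arrays (1 per group, log axis, raised to the floor marked by the dotted line) for 10 genes that were lower and 10 that were higher at day 6 than at day 1. On the left all genes peak at day 1, as Il1b does at 13108; on the right Lcn5 is below the floor at days 1 and 3 and reaches 8029 at day 6, while Cidea is highest at day 3, at 1312.

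Acute phase proteins, which fat makes under inflammatory signals, were mixed. Of 19 measured, 6 were lower, 1 was higher and 6 lay below the floor on both arrays, so the median was 0.00. Saa3, the serum amyloid A form of fat and macrophages, read 889 in control, 19119 at day 1, 8098 at day 3 and 2016 at day 6, which is 9.48-fold lower. Ptx3, a pattern recognition pentraxin, was at least 27.5-fold lower, from 4755 to 26. Lcn2, an iron-trapping lipocalin, was 9.45-fold lower when read from the brighter of its probe sets. The dimmer one read 273 at day 1 and 429 at day 6. Mt2, a metal-binding metallothionein, was among the brightest transcripts to differ, with 47418 at day 1 and 10174 at day 6, or 4.66-fold. The exception was Orm1, an orosomucoid, which went from 1949 to 7407 and was 3.80-fold higher, while its close relative Orm2 went from 732 to 289. Their sequences are alike and probe sets may cross-hybridize, and both were named after their values were seen.

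Enzymes that handle arginine and fatty acid signals were mixed. Of 15 prostaglandin, arginase and nitric oxide genes, 6 were lower, 7 lay within 2-fold and 2 were higher (Hpgd, which inactivates prostaglandins, and the endothelial nitric oxide synthase Nos3), with a median of -0.40. Arg1, the cytosolic arginase of alternatively activated macrophages, read 128 in control, 14410 at day 1, 2924 at day 3 and 78 at day 6, at least 83.3-fold lower. Odc1, which turns the product of arginase into polyamines, was 6.10-fold lower, from 3766 to 617, and Ptgs2, the inducible cyclooxygenase, at least 5.53-fold lower. The mitochondrial arginase gene Arg2 was 6.39-fold lower by its brighter probe set, and its other probe set read 68 and 199. The inducible nitric oxide synthase Nos2 was below the floor on both arrays. Acod1, which makes itaconate in activated macrophages, read -2, 7959, 308 and 116 and was at least 46.0-fold lower.

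Of 23 genes of matrix proteases, plasminogen activation and their inhibitors, 7 were lower and 4 higher, with a median of -0.06. Mmp9, the gelatinase of neutrophils, read 353 in control, 4438 at day 1, 155 at day 3 and -106 at day 6, at least 25.7-fold lower by its brighter probe set. Timp1, an inhibitor of these proteases, was 11.8-fold lower, from 18815 to 1597, the leukocyte protease Adam8 8.47-fold and the urokinase receptor Plaur at least 6.54-fold. The members that were higher were Mmp12, Adam12, Adam17 and the clotting initiator F3. Mmp12, the elastase of macrophages, read 859, 1227, 1366 and 5620 in control and at days 1, 3 and 6. It was thus 4.58-fold higher at day 6 than at day 1, and day 6 stood above the other 3 arrays.

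Several of the lowest ratios belonged to genes outside these lists. Alpl, the tissue-nonspecific alkaline phosphatase, read 186 in control, 6424 at day 1, 412 at day 3 and 259 at day 6 and was 24.8-fold lower. Hdc, which makes histamine, was 20.2-fold lower, from 3836 to 190, and Slfn2, a schlafen family gene of leukocytes, 9.59-fold lower. Ifitm1, an interferon-induced membrane protein, went from 3400 to 212. Star, which carries cholesterol into mitochondria, read 18, 7991, 267 and -30, at least 46.2-fold lower, and its other probe set had a log2 ratio of -2.34. The skeletal muscle actin Acta1 followed another course, with 1492 in control, 2379 at day 1, 212 at day 3 and 168 at day 6, at least 13.7-fold lower. It was low on both later arrays.

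Among 30 cyclic AMP responsive and immediate early genes, which neurotransmitters and stress switch on within minutes, 15 were lower at day 6 and 2 higher, with a median of -1.02. Junb, an AP-1 transcription factor, read 302 in control, 4454 at day 1, 632 at day 3 and 110 at day 6, at least 25.7-fold lower, and its partner Fosl1 was at least 8.89-fold lower. Ier3, a survival gene of stressed cells, was 13.1-fold lower, from 8777 to 670, and Gadd45b, a growth arrest gene, 6.39-fold. The pair that was higher were Klf9, from 1132 to 2532, and Rgs2, a brake on G protein signalling, from 631 to 1615, both named after their values were seen. Rgs2 was higher on each later array, with 493 in control and 1318 at day 3.

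Of 19 endoplasmic reticulum chaperone genes, which fold secreted proteins, 11 were lower and 0 higher, with a median of -1.24, while day 3 over day 1 had a median of -1.01; these ratios share the day 1 array. Manf, a secreted stress factor, read 2265 in control, 8007 at day 1, 2296 at day 3 and 1676 at day 6, which is 4.78-fold lower. Creld2 was 3.81-fold lower, Pdia6, a disulfide isomerase, 3.69-fold and the cochaperone Dnajc3 3.28-fold. Abundant members took part too, as Hspa5, the major chaperone also called BiP, went from 17248 to 6004. Xbp1, a transcription factor of the unfolded protein response, lay within 2-fold, at 7481 and 6050, and P4hb read 3150 and 3808. Of 15 cytosolic and mitochondrial heat shock genes, 4 were lower, 0 higher and 11 within 2-fold, with a median of -0.59. Hsph1, a cochaperone, led them at 5.32-fold lower, from 5413 to 1017, followed by Bag3 at 2.64-fold, Hsp90aa1 and Hspb8.

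Of 17 genes of the nucleolus, where ribosomes are assembled, 8 were lower, 0 higher and 9 within 2-fold, with a median of -0.96. Nucleolin (Ncl) read 6395 in control, 14231 at day 1, 7337 at day 3 and 4794 at day 6, which is 2.97-fold lower. Gar1 was 3.00-fold lower, and Nop58 and fibrillarin (Fbl), which modify ribosomal RNA, were 2.89-fold and 2.87-fold lower. Genes for the ribosome itself stayed mostly within 2-fold. Of 24 cytosolic ribosomal protein genes, 1 (Rpl13a, 2.63-fold) was lower and 1 (Rpl22, 2.35-fold) higher, with a median of -0.26. Of 21 translation factors 2 (Eif1a and Eif6) were lower and 1 (Eif4ebp1, an inhibitor of translation) higher. These shares were 4.17% each way for the first list and 9.52% lower and 4.76% higher for the second. Over all genes 6.77% were lower and 6.81% higher. Eif6 and Eif4ebp1, at 2.03-fold and 2.04-fold, were under the 2.16-fold of 3 errors. Of 23 amino acid synthesis and tRNA synthetase genes, 5 were lower and 0 higher, namely the tRNA synthetases Cars (at least 2.45-fold), Hars and Iars and the amino acid transporters Slc7a5 (2.32-fold) and Slc7a11. None of 30 proteasome genes reached 2-fold in either direction, and their median was -0.12. The brightest of them, Psma3 and Psma6, read 12833 and 12332 and 13190 and 13538.

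**Figure D3:**
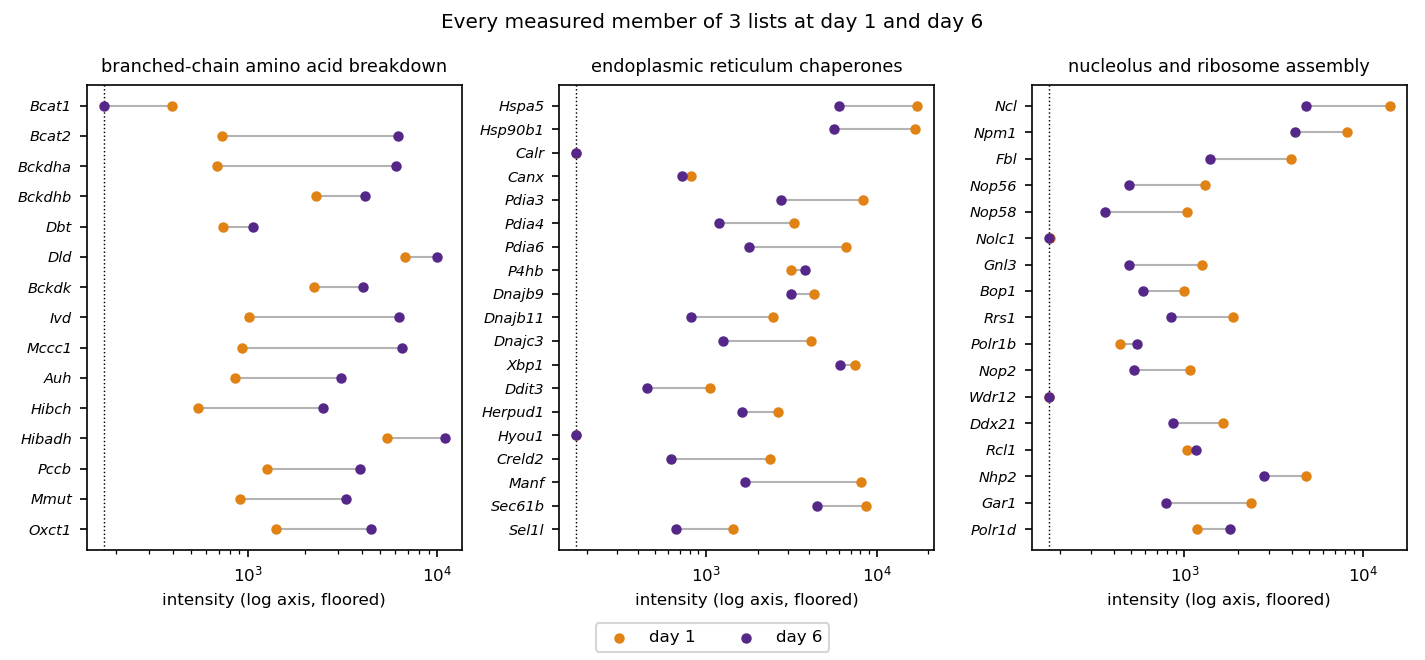
Intensity at day 1 (orange) and day 6 (purple) of every measured member of 3 lists, on log axes, raised to the floor marked by the dotted line. In branched-chain amino acid breakdown 14 of 15 members lie to the right at day 6; among endoplasmic reticulum chaperones 16 of 19 and in the nucleolus list 13 of 17 lie to the left.

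Of 31 actin cytoskeleton and motility genes, 13 were lower, 0 higher and 18 within 2-fold, with a median of -0.90. The leukocyte forms led: the actin bundler Lcp1 was 5.81-fold lower, from 12062 to 2077, Coro1a 4.96-fold, and Was, the gene of Wiskott-Aldrich syndrome, at least 4.56-fold. Msn, which ties actin to the membrane in many cell types, was 3.65-fold lower. Of 27 macrophage and monocyte markers 18 were also lower, and their part in this was not tested.

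The promoters of genes with large ratios were searched for short sequence motifs of factors that act in inflammation, in the 250 bases before each start site in the RefSeq table (GRCm38.p6), on both strands. A kappa B form (GGGNNTTCC) was found in 6.29% of 572 promoters of genes lower at day 6, 4.00% of 575 of genes higher at day 6 and 6.06% of 8412 of all genes on the array. A STAT form (TTCNNNGAA) was found in 7.87%, 6.61% and 6.09%, and an AP-1 form (TGANTCA) in 8.04%, 4.87% and 5.54%. The full cyclic AMP response element (TGACGTCA) stood in 1.57%, 1.91% and 2.21%. A GC box (GGGCGG) was also searched and stood in 56.12%, 52.35% and 52.82%, and its matches are not marked in the stretches below. Over all 32851 promoters in the table the shares were 4.98% for kappa B, 7.02% for STAT, 6.75% for AP-1 and 1.55% for the cyclic AMP element. These shares are descriptions, and a match is not evidence of binding. Nor is a missing match evidence that no site is present, since only this 9-base kappa B form was searched. The Cxcl1 and Cxcl2 stretches, counted as without a match, hold gggaatttcc, a slightly longer sequence that the form does not match.

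Of the 40 genes with the most extreme ratios, 32 had a promoter in the table and 8 of these held one of the 4 motifs other than the GC box. The 3 of them that were lower at day 6 (Socs3, Slfn2 and Il1rn) are shown, with Cxcl9 picked from the 5 that were higher (Aox1, Cyp2f2, Igfals, Cxcl9 and Ntsr2) because kappa B forms occur on both sides. They are written 5′ to 3′ in the direction of the gene. Capitals mark the match and all other bases are in lower case. The Socs3 stretch (chr11:117969367-117969616, minus strand) has a STAT form that starts 154 bases before the start site, and the Slfn2 stretch (chr11:83064862-83065111, plus strand) a kappa B form 32 bases before it. The Il1rn stretch (chr2:24336610-24336859, plus strand), 1 of 3 start sites of that gene in the table, has an AP-1 form 141 bases before it. The Cxcl9 stretch (chr5:92328080-92328329, minus strand) has 2 kappa B forms, 130 and 42 bases before the start site.
Socs3: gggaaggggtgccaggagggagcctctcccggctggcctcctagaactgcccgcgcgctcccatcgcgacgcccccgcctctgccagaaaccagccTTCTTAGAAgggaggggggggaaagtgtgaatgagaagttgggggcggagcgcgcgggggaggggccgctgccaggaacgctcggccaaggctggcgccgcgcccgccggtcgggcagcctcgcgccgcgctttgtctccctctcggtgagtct
Slfn2: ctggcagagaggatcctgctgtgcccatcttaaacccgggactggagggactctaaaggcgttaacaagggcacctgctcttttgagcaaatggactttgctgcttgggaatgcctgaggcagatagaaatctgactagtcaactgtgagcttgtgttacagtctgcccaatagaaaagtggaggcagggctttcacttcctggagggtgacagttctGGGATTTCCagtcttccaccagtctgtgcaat
Il1rn: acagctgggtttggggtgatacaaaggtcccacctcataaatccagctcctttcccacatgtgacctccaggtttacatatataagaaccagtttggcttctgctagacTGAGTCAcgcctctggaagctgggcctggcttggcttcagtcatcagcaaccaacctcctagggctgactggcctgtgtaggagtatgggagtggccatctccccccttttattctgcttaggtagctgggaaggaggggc
Cxcl9: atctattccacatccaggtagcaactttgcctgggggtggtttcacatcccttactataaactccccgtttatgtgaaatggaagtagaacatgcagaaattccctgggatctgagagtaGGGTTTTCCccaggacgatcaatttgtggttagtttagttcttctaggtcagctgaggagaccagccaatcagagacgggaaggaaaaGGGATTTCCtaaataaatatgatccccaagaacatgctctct

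Of 25 fat cell identity and adipokine genes, 13 were higher, 0 lower and 12 within 2-fold, with a median log2 ratio of 1.03. Slc2a4, the glucose transporter that insulin moves to the cell surface, read 4054 in control, 648 at day 1, 4015 at day 3 and 4553 at day 6 and was 7.02-fold higher. Pparg, the nuclear receptor that directs fat cell formation, read 4874, 1303, 3375 and 4521, or 3.47-fold higher. For both, day 1 stood below the other 3 arrays, which lay close together. Aoc3, an amine oxidase on the fat cell surface, was 3.93-fold higher and Rbp4, a retinol carrier, 3.42-fold.

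Adipokine genes differed in where day 6 stood against control. Adipoq read 52042 in control, 25374 at day 1, 42596 at day 3 and 55274 at day 6, which is 2.18-fold higher. Lep, the satiety hormone leptin, read 18447, 1607, 3806 and 4839 by its brighter probe set. It was thus 3.01-fold higher at day 6 than at day 1 and still below control. Its other probe set read 10217, 8, 614 and 1412, with day 1 below the floor and a log2 ratio of 3.03, so the size differed between probe sets. Nnat, a proteolipid of fat and brain named after its value was seen, read 27857, 823, 516 and 2542 and had its lowest reading at day 3. Fabp4, the fatty acid-binding protein of fat cells, was at 10068 and 10786, within 2-fold.

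Of 14 fatty acid synthesis genes, 6 were higher and 0 lower, with a median of 0.64. Thrsp, a regulator of lipid synthesis, read 34364 in control, 2214 at day 1, 36861 at day 3 and 40011 at day 6 and was 18.1-fold higher. Fasn, the fatty acid synthase, read 31660, 4958, 23355 and 32155, or 6.49-fold higher. Slc25a1, which exports citrate for the pathway, was 3.61-fold higher and the malic enzyme Me1, which supplies its reducing power, 2.86-fold. Scd1, the stearoyl-CoA desaturase, was bright throughout, at 51868 and 70221, and within 2-fold.

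Of 15 lipase and lipid droplet genes, 6 were higher, 1 was lower and 8 lay within 2-fold, with a median of 0.60. Lipe, hormone-sensitive lipase, read 15659 in control, 8425 at day 1, 15707 at day 3 and 19683 at day 6 and was 2.34-fold higher, and Ces1d, an esterase of the lipid droplet, read 21690, 4726, 21775 and 30211 and was 6.39-fold higher. Pnpla2, the adipose triglyceride lipase that takes the first step, stayed within 2-fold, at 32428 and 43919. The member that was lower was Plin2, a coat protein of small droplets, which read 13064, 39893, 21576 and 12413 and was 3.21-fold lower. Of 14 triglyceride synthesis genes, 2 were higher and 1 lower, or 14.3% and 7.14%, against 6.81% and 6.77% of all genes. The fatty acid transport protein Slc27a1 and the glycerol phosphate enzyme Gpd1 were 2.28-fold and 2.09-fold higher. Acsl4, which activates arachidonic acid, was 7.48-fold lower, from 5606 to 749.

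The list with the highest median was the breakdown of the branched-chain amino acids leucine, isoleucine and valine, which fat cells burn in mitochondria. Of 15 genes, 10 were higher and 1 lower, with a median log2 ratio of 1.66, against 1.44 for day 3 over day 1, which shares the day 1 array. Bckdha, a subunit of the branched-chain keto acid dehydrogenase that commits the pathway, read 3518 in control, 686 at day 1, 3028 at day 3 and 6033 at day 6 and was 8.79-fold higher. Bcat2, the mitochondrial aminotransferase of the first step, read 3253, 727, 4757 and 6224, or 8.56-fold higher. In both cases day 1 was the low array and day 6 the high one.

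Enzymes further down the leucine branch went with them. Mccc1, a subunit of the methylcrotonyl-CoA carboxylase, read 5110 in control, 928 at day 1, 3876 at day 3 and 6524 at day 6, or 7.03-fold higher, and Ivd, the isovaleryl-CoA dehydrogenase, was 6.15-fold higher, from 1013 to 6233. The other subunits of the dehydrogenase complex moved less than Bckdha. Bckdhb went from 2291 to 4136, Dbt from 736 to 1067 and the shared subunit Dld from 6783 to 9926, each within 2-fold, as did the inhibitory kinase Bckdk, from 2222 to 4063. The member that was lower was Bcat1, the cytosolic aminotransferase, with 398 at day 1 and 7 at day 6, at least 2.30-fold lower. The last 5 genes were named after their values were seen.

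Of 23 carnitine shuttle and beta-oxidation genes, 14 were higher and 2 lower, with a median of 1.06, and day 3 over day 1 had the same median of 1.06. Eci1, an isomerase for unsaturated fatty acids, read 7095 in control, 3485 at day 1, 12189 at day 3 and 14244 at day 6 and was 4.09-fold higher. Acads, the short-chain acyl-CoA dehydrogenase, read from its brighter probe set was 3.48-fold higher and Ehhadh, a peroxisomal enzyme, at least 3.46-fold. The members that were lower were Acot1, a cytosolic thioesterase, which went from 1020 to 211 and was 4.83-fold lower, and Cpt1a, the gate of fatty acid entry into mitochondria, named after its value was seen, which read 3334, 8319, 4416 and 2993.

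Of 25 citric acid cycle and pyruvate dehydrogenase genes, 6 were higher and 0 lower, with a median of 0.76. Sdha, the flavoprotein of succinate dehydrogenase, read 2147 in control, 1157 at day 1, 2709 at day 3 and 3883 at day 6 and was 3.36-fold higher, and Sucla2 and Idh3g were each 2.53-fold higher. Pdk1, a kinase that holds pyruvate dehydrogenase back, was 2.38-fold higher, while Pdk4, its relative induced by fasting and named after its value was seen, read 3250 at day 1 and 3491 at day 6.

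The respiratory chain and ATP synthase lists together held 68 genes, of which 61 had a log2 ratio above 0 and 2 below it, 13 were higher past 2-fold and 0 lower, and the median was 0.60. Complex I had a median of 0.61 with 4 of 27 higher, complexes II and III with cytochrome c 0.67 with 2 of 13, cytochrome oxidase 0.58 with 4 of 15, and ATP synthase 0.48 with 3 of 13. In complex I, Ndufv3 was 3.02-fold higher, from 2318 to 6997, and Ndufb9 2.32-fold. Most members thus differed by less than 2-fold in the same direction. Atp5g1 of the ATP synthase gave at least 3.60-fold more signal at day 6 on the brighter of its probe sets, and the dimmer one read 225 at day 1 and 185 at day 6. Of 31 mitochondrial ribosome and gene expression genes, 0 reached 2-fold and the median was 0.31. Of 23 carriers and import genes 2 were higher and 1 lower, or 8.70% and 4.35%, near the 6.81% and 6.77% over all genes. Slc25a10, which carries dicarboxylates, read 7103, 2656, 16140 and 16002 and was 6.03-fold higher, and Tomm40, the import pore of the outer membrane, was 2.34-fold lower.

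**Figure D4:**
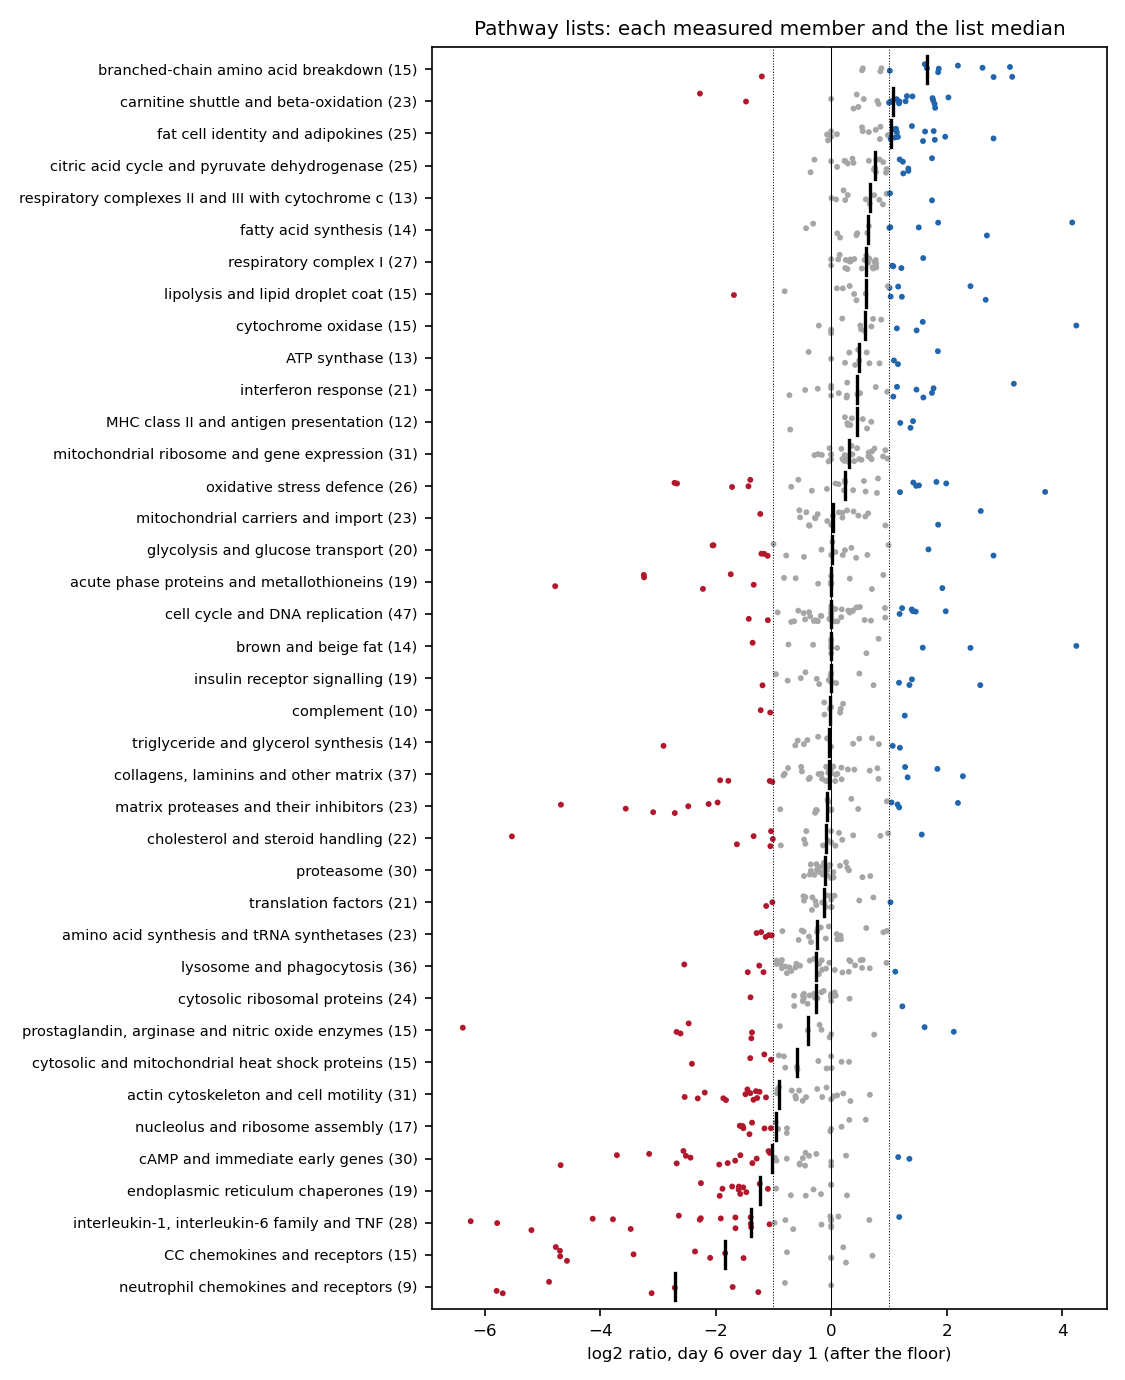
Log2 ratio of day 6 over day 1 for each measured member (point) and the median (bar) of 39 pathway lists, with the number of measured members in brackets; dotted lines mark 2-fold. Medians run from -2.71 for neutrophil chemokines and receptors to 1.66 for branched-chain amino acid breakdown.

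Genes of brown and beige fat did not share a direction. Of 14 measured, 3 were higher, 1 was lower and 5 lay below the floor on both arrays, with a median of 0.00. Cox8b, the heart and brown fat form of a cytochrome oxidase subunit, read 1002 in control, 815 at day 1, 9551 at day 3 and 15473 at day 6 and was 19.0-fold higher, with 4.13 as the log2 ratio of its other probe set. Cidea, which enlarges lipid droplets in brown fat, read 266, 178, 1312 and 947 and was 5.33-fold higher. Cox7a1, another tissue-specific oxidase subunit, was 3.00-fold higher, from 318 to 954. Ucp1, which uncouples respiration to make heat, went the other way. It read -14, 3056, 1501 and 1190, so that it was highest on the day 1 array and 2.57-fold lower at day 6, and its other probe set had a log2 ratio of -1.68. Dio2, which activates thyroid hormone and was named after its value was seen, read 723 at day 1 and 433 at day 6, within 2-fold. Ppargc1a, which coactivates the transcription of mitochondrial genes, did not reach the floor on any of the 4 arrays. The day 1 reading of Cidea lay close to the floor of 173. With the floor at percentile 60, Cidea and Cox7a1 no longer passed 2-fold.

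For several enzymes and transporters that come in tissue-specific forms, the forms moved in opposite directions. These pairs were picked after their values were seen. The widely expressed glucose transporter Slc2a1 read 112 in control, 718 at day 1, 118 at day 3 and 88 at day 6 and was at least 4.15-fold lower, while the insulin-responsive Slc2a4 was higher, as given above. The phosphofructokinase forms Pfkp and Pfkm went from 1308 to 585 and from 260 to 835, that is 2.24-fold lower and 3.21-fold higher. Bcat1 and Bcat2 likewise differed in direction. With the floor at percentile 60, Slc2a1, Pfkm and Bcat1 no longer passed 2-fold, so in each pair a call depended on the floor. Of 20 glycolysis and glucose transport genes, 5 were lower (Slc2a1, Pfkp, Slc16a1 and the late enzymes Pgk1 and Pkm) and 2 higher (Slc2a4 and Pfkm), with a median of 0.01. The lactate transporter Slc16a1 was 4.11-fold lower, from 1068 to 260.

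Defence against oxidants was also split. Of 26 genes, 7 were higher and 5 lower, with a median of 0.24. The lower ones included Gsr, the glutathione reductase, which read 1640 in control, 9197 at day 1, 1680 at day 3 and 1445 at day 6 and was 6.36-fold lower, and Srxn1, which repairs peroxiredoxins, 6.56-fold lower by its brighter probe set. Hmox1, which breaks down heme, read 2513, 16629, 8956 and 5061 and was 3.29-fold lower, still above control at day 6. The others were Sod2 and Txnrd1. The higher ones were led by glutathione S-transferases. Gsta3 read 2946, 308, 3041 and 4016 and was 13.1-fold higher, and Gstt2 was 3.98-fold higher.

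Enzymes and membrane proteins outside the lists had some of the highest ratios. Reep6, which shapes the endoplasmic reticulum, read 2192 in control, 525 at day 1, 5460 at day 3 and 6018 at day 6 and was 11.5-fold higher. Tst, a mitochondrial sulfurtransferase, was 11.4-fold higher, from 634 to 7207, the aldehyde oxidase Aox1 10.7-fold, the cytochrome P450 Cyp2f2 9.73-fold and Pxmp2, a channel of the peroxisome membrane, 9.16-fold. H1f10, a linker histone, read 581, 196, 1708 and 3270 and was 16.7-fold higher. A probe set named for the pseudogene Tyms-ps was 20.3-fold higher, from 243 to 4940. It may also bind transcripts of the parent gene, and the gene's other probe set was below the floor on both arrays.

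Among genes whose day 1 value was below the floor, Igfals, which stabilizes insulin-like growth factors in blood, read 1760 in control, -11 at day 1, 1570 at day 3 and 1678 at day 6 and was at least 9.70-fold higher. Vnn3 of the vanin family was at least 8.20-fold higher, the sodium channel gene Scn7a at least 6.27-fold, Rtn2 at least 5.83-fold, the neurotensin receptor Ntsr2 at least 5.38-fold and Pcbd1 at least 5.31-fold. Each of these 5 read between 411 and 1378 in control.

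Of 21 interferon response genes, 7 were higher, 0 lower and 14 within 2-fold, with a median of 0.45. Cxcl9, a chemokine that interferon-gamma induces, read 1295 in control, 132 at day 1, 672 at day 3 and 1551 at day 6, at least 8.97-fold higher. Ifit3 was 3.42-fold higher, with a day 1 reading of 178, close to the floor. The GTPases Gbp3 and Iigp1 were 3.35-fold and 3.02-fold higher, Iigp1 by its brighter probe set. The other Iigp1 probe set read 456 at day 1 and 715 at day 6, within 2-fold. With the floor at percentile 60, Ifit3 and Iigp1 no longer passed 2-fold. Day 3 over day 1 had a median of 0.00 and day 6 over day 3 of 0.50; these ratios share arrays with the main one. Of 12 antigen presentation genes 3 were higher and 0 lower, all of them MHC class II chains: H2-Ab1 was 2.67-fold, H2-Eb1 2.59-fold and H2-Aa 2.29-fold higher. Of 10 complement genes, C2 was 2.42-fold higher, and the receptor C3ar1 and properdin (Cfp) were 2.33-fold and 2.08-fold lower. Over all genes 6.81% were higher and 6.77% lower, so these few members say little about complement as a list.

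The remaining lists had members on both sides, as did all genes together, with 6.81% higher and 6.77% lower. Of 47 cell cycle genes, 6 were higher and 2 lower, with a median of 0.00; the inhibitor Cdkn2c, from 2184 to 8643, was 3.96-fold higher, the checkpoint gene Mad2l1 2.76-fold and the proliferation marker Mki67 at least 2.66-fold, while the replication helicase Mcm4 was 2.69-fold and the inhibitor Cdkn1a 2.14-fold lower. Of 19 insulin signalling genes, 4 were higher (Irs3, Pik3r1, Cav1 and Igfbp4) and 1 lower. Irs3, a substrate of the insulin receptor in rodent fat, read 1151 in control, 204 at day 1, 1023 at day 3 and 1221 at day 6 and was 5.99-fold higher, and Ptpn1, a phosphatase that turns the receptor off, was 2.28-fold lower.

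Of 22 cholesterol and steroid genes, 6 were lower and 1 higher, with the synthesis enzymes Sqle and Msmo1 3.10-fold and 2.54-fold lower and Fdft1 2.97-fold higher. Of 37 matrix genes, 4 were higher and 4 lower, 10.8% each way against 6.81% and 6.77% of all genes. Lum, a proteoglycan that spaces collagen fibrils, read 5092 in control, 1360 at day 1, 6546 at day 3 and 6610 at day 6 and was 4.86-fold higher, and the laminin chain Lama2, Nid2 and Sparcl1 were 3.58-fold, 2.50-fold and 2.43-fold higher. Fibronectin (Fn1) was 3.79-fold lower, from 12861 to 3390, and Fbln2, Ccn1 and Ccn2 were lower too. Of 36 lysosome and phagocytosis genes, 4 were lower and 1 higher, with a median of -0.26. The scavenger receptor Msr1 was at least 5.83-fold lower, the lectin Lgals3 2.72-fold, Cd63, a membrane protein of late endosomes, 2.37-fold and the protease Lgmn 2.25-fold, while the fatty acid receptor Cd36 was 2.16-fold higher.

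**Figure D5:**
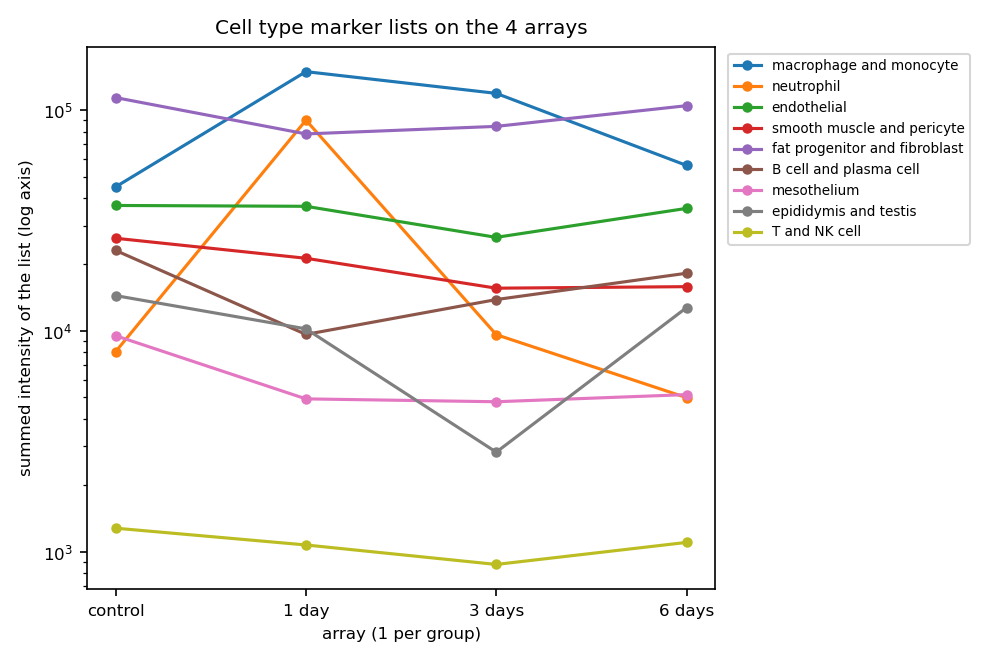
Summed intensity of the measured members of 9 cell type marker lists on each of the 4 arrays (log axis, 1 array per group). The neutrophil list stands at 90192 on day 1 and 4984 on day 6, the macrophage list at 149637 and 56225, and the epididymis and testis list is lowest at day 3, at 2821.

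Among markers of the cells that the tissue can hold, macrophage and neutrophil ones passed 2-fold most often. Of 27 macrophage and monocyte markers, 18 were lower at day 6 and 0 higher, with a median of -1.40, and their summed intensity went from 149637 to 56225. Members differed widely in size. Clec4d, a lectin of activated myeloid cells, read 68 in control, 7622 at day 1, 816 at day 3 and 345 at day 6 and was 22.1-fold lower, Chil3 was at least 37.6-fold, Itgam, an integrin of monocytes and neutrophils, 11.2-fold and the Fc receptor chain Fcer1g at least 7.27-fold lower by its brighter probe set. Cd68, a lysosomal glycoprotein of macrophages, read 1913, 8718, 10439 and 2867 and was 3.04-fold lower. Adgre1, a surface receptor that marks tissue macrophages, read 692, 1321, 3254 and 1013, and Csf1r and Lyz2, named after their values were seen, read 4161 and 3532, and 11627 and 10986, all within 2-fold.

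Of 14 neutrophil markers, 7 were lower and 2 higher, with a median of -1.29, and their sum went from 90192 to 4984. Without the members that stand on another list the median was 0.00. The granule genes Mpo, Ngp and Prtn3, which are made while neutrophils mature in bone marrow, were below the floor on both arrays. The members that were higher, Camp and Elane, are granule genes as well and read 242 and 594, and 292 and 593. The part of the myeloid markers in the inflammatory and fat cell differences above was not tested.

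Other cell types differed less. Over all genes 6.81% were higher and 6.77% lower, so a few members past 2-fold in a short list say little about a cell type. None of 15 T and NK cell markers reached 2-fold and 13 were below the floor on both arrays, among them Cd3e and Cd8a. Of 12 B cell and plasma cell markers 3 were higher (Ighm, Jchain and Blnk) and 2 lower (Cd79a and Sdc1). The immunoglobulin chain Ighm, by the brightest of its many probe sets, read 18367 in control, 5992 at day 1, 8790 at day 3 and 13667 at day 6. Of 12 mast cell and basophil markers 1 (Hdc) was lower and 1 (the chymase Cma1) 2.05-fold higher. Of 6 eosinophil markers 5 were below the floor on both arrays, and Alox15 was at least 2.32-fold lower.

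Of 16 endothelial markers 1 was lower and 1 higher, 6.25% each way, near the 6.77% and 6.81% over all genes. Selp, the P-selectin that inflamed vessels show to leukocytes, went from 1204 to -1, at least 6.96-fold lower. The tight junction gene Cldn5 was 2.38-fold higher. Of 13 progenitor and fibroblast markers 2 (Mest and Lum) were higher and 1 (Pdgfra) lower, and of 11 smooth muscle and pericyte markers 1 (Rgs5, 2.87-fold) was higher and 2 (Mylk and Smtn) lower. Of 15 skeletal muscle markers 2 were higher (Myl1, 3.34-fold, and Myh4, at least 2.16-fold) and 1 (Acta1) lower. None of the 8 mesothelium, 5 red blood cell and 8 nerve markers reached 2-fold; the red cell globin Hba-a1 read 39369 and 42961, and the mesothelial Upk3b 2283 and 2376. Of 13 epididymis and testis markers 2 (Lcn5, at least 46.4-fold, and Adam7, 9.24-fold) were higher, and Star, on that list as a steroid gene of the testis, was lower. The sum of that list was 14453 in control, 10216 at day 1, 2821 at day 3 and 12754 at day 6, and Star made up most of it at day 1.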

How the data were processed

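Intensities of 12488 probe sets on 4 Affymetrix mouse arrays were used as the authors deposited them, as linear whole-number intensity values of which 12.2% to 12.4% per array were at or below 0. Neither labels nor headers name the software, background step or normalization (not given in the sources used). Control probe sets (66) were left out of the comparison, but the scaling and the floor were computed with them included. Each array was multiplied by a factor (0.999 to 1.001) that equalized its mean after trimming the lowest 2% and the values above percentile 98, and values under percentile 40 of the 4 pooled arrays were set to that floor. Of 12422 probe sets, 10833 had 1 symbol in the array's annotation table, 396 several and 1193 none here; 10817 matched a RefSeq gene (GRCm38.p6) by Entrez identifier and 0 symbols changed. A gene is represented by its probe set with the highest mean over the 4 arrays, and intensities are printed after scaling and before the floor.

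Gene lists (39 pathway, 14 cell type), motifs and the naming rule were chosen with earlier results of these data known. A list's median and counts are over all measured members, also those below the floor. The rule named the 12 largest ratios each way with both values above the floor and the brighter at least 2 times the floor, the 8 largest bounds each way, up to 4 members past 2-fold per list (otherwise the 2 brightest), and 25 fixed genes, of which Adrb3 is not analysed here; it gave 195 genes. Genes outside it were named after their values were seen. Of the 195, 57 had other probe sets; for 5 (Arg2, Atp5g1, Lcn2, Pdgfra and Srxn1) one went the opposite way, and for 22 one was below the floor on both arrays. Promoters of 6576 array genes were in the RefSeq table. Python 3.11.15, numpy 2.4.6 and pandas 2.3.3 were used.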

Additional observations from a re-analysis of the deposited data

How the results depend on the processing

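Counts of probe sets moved with the floor and the threshold, and list medians moved mainly for lists with many members near the floor. With the floor at percentile 25, 1096 probe sets were higher and 1137 lower, with it at percentile 60, 401 and 448, and with log2(value + 50) and no floor, 1109 and 1177. At 1.5-fold the counts were 1678 and 1481 and at 3-fold 218 and 303. No scaling and quantile normalization moved no count by over 1.5 times, and no list median or text gene past its limit. The neutrophil chemokine median was -3.93 with the floor at percentile 25, -1.48 at 60, -3.29 with log2(value + 50) and -3.11 with the mean of all probe sets of a gene. The neutrophil marker median was -2.02, -0.24 and -2.0015 under the first 3 of these settings, -1.97 when members under the floor on both arrays were dropped, and 0.00 without members on another list. At percentile 25 and with log2(value + 50), the prostaglandin and arginase median was -0.89 and -0.88 and the interferon median 0.97 and 0.96. The B cell median was 0.68 at percentile 25, and the brown and beige fat median 0.44 with log2(value + 50). With such members dropped, the medians were -0.82 for acute phase proteins, 0.61 for brown and beige fat, -1.22 for eosinophil, 0.41 for skeletal muscle and 0.62 for epididymis and testis markers. Members under the floor on both arrays have a ratio of 0.00, so a median further from it without them is in part built in. The eosinophil value is that of 1 gene, Alox15. No result that was called reversed its direction. The cause of the other moves was not tested.

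Of 205 genes named in the text and past 2-fold, 46 no longer were with the floor at percentile 60 and 5 (Blnk, Cma1, Eif6, Elane and Iars) with log2(value + 50). With the mean of all probe sets of a gene, 20 no longer were: Atp5g1, Blnk, C2, Cav1, Cd36, Cd68, Cdkn1a, Cma1, Dnajc3, Eif1a, Gar1, Hsp90aa1, Idh3g, Igfbp4, Ighm, Mki67, Myh4, Pdgfra, Rpl22 and Stmn1. A probe set below the floor on both arrays enters this mean as a log2 ratio of 0. No paired analysis was possible because each group has 1 array, and for the same reason none was left out. Values near the floor carry no order, and the spread between mice is not measured.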

Other observations

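Some transcripts of the treated arrays were highest on the intermediate day. Cd68 read 8718 at day 1, 10439 at day 3 and 2867 at day 6, Adgre1 1321, 3254 and 1013, the lysosomal protease Lgmn 7529, 9220 and 3342, and the complement receptor C3ar1 1675, 2462 and 719. Csf1r, the receptor for the macrophage growth factor, read 4161, 7235 and 3532. The mitotic kinase Cdk1 read 68, 698 and 279, the thymidine kinase Tk1 133, 745 and 224 and Stmn1 459, 2739 and 1075. Other cell cycle genes differed, as Mad2l1 (189, 490 and 521) was highest at day 6 and Mcm4 (591, 411 and 220) at day 1. Mki67 was highest at day 6 by the probe set used here (160, 276 and 461). By its other probe set (65, 547 and 213) it was highest at day 3. For such genes the ratio of day 6 over day 1 does not show the day 3 reading. They were picked after their values were seen.

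Gpx5, a glutathione peroxidase secreted by the epididymis, read 6711 in control, 179 at day 1, 622 at day 3 and 302 at day 6. It thus differed from Lcn5 and Adam7, which were high in control and at day 6. Thbd, an anticoagulant receptor of vessels, read 3951 in control, 3409 at day 1, 714 at day 3 and 783 at day 6, low on both later arrays like Acta1.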
